A study of Mus musculus with 6 samples.

Results

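The genes described here are the cyclins of the G1 phase and the inhibitors of their kinases in PA6 cells, 10 genes in all: CCND1, CCND2, CCND3, CCNE1, CCNE2, CDKN1A, CDKN1B, CDKN1C, CDKN2B and CDKN2C. They were taken as all probes that the array's annotation assigns to one of these 10 names, which gave 22 of 45281 probes and 10 of 30854 names. Of these, 16 probes and 8 genes passed the detection filter, among 16111 probes and 11872 genes that passed it on the whole array. CCNE2 and CDKN1B did not.

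PA6 is a mouse bone marrow stromal cell line, used by the study as the feeder layer on which embryonic stem (ES) cells turn into endothelium when FGF2 or BMP4 is added. To see what the stroma itself does early, confluent PA6 monolayers were kept without ES cells in serum-free medium for 3 h, either with no factor added (the -GFs medium), with recombinant FGF2 at 20 ng/ml or, per the labels, with recombinant BMP4 at 10 ng/ml. The paper's methods give a lower BMP4 dose for its co-cultures. Each group had 2 replicates, each replicate was a set of 3 wells with 1 well per treatment, and each well gave 1 array. All 3 groups shared the cell line, the medium without serum and the confluent state, and no ES cells, other lines or other times were analysed here.

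D-type cyclins (CCND1, CCND2 and CCND3) bind CDK4 and CDK6, E-type cyclins (CCNE1 and CCNE2) bind CDK2, and both kinds of complex phosphorylate the retinoblastoma protein, which releases E2F factors and opens the way from G1 into S phase. CDKN2B and CDKN2C belong to the INK4 inhibitors, which bind CDK4 and CDK6 and keep D-type cyclins off them, whereas CDKN1A, CDKN1B and CDKN1C belong to the CIP/KIP inhibitors, which bind cyclin-CDK complexes. Growth factors are known to raise transcription of D-type cyclins early in G1, and confluent cells without serum are usually held before S phase by these inhibitors.

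In the RefSeq annotation of GRCm38.p6, CCND1 lies on chr7:144929931-144939831, CCND2 on chr6:127125162-127152188, CCND3 on chr17:47505051-47599689 and CDKN2C on chr4:109660876-109666756. CDKN2B, which lies on the same chromosome as CDKN2C, occupies chr4:89306289-89311032. Where the probes lie within these genes was not analysed here. The RefSeq promoter table, with 300 bases around each start site, most of them upstream of it, held 6 of the 10 genes and lacked CCND1, CCND2, CCNE2 and CDKN1C. The promoters of CCND3 and CDKN2C are printed because these 2 genes lay on opposite sides of -GFs under FGF2. Each has 2 start sites in the table. Capitals mark exact matches, on either strand, to any of 7 motifs: AP-1 (TGACTCA), CRE (TGACGTCA), EGR (GCGGGGGCG), E2F (TTTCCCGC), E-box (CACGTG), FOXO (GTAAACA) and SP1 (GGGGCGGGG). The letters of these motifs do not contain one another. Sequences are given 5′ to 3′ on the gene's strand, which is the plus strand for CCND3 and the minus strand for CDKN2C.
CCND3, chr17:47504801-47505100: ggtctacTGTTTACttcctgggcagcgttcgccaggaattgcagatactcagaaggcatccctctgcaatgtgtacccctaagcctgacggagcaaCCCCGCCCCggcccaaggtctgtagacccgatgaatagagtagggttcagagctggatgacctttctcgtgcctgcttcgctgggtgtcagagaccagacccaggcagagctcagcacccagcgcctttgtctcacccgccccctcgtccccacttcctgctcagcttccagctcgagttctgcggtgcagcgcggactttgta
CCND3, chr17:47593217-47593516: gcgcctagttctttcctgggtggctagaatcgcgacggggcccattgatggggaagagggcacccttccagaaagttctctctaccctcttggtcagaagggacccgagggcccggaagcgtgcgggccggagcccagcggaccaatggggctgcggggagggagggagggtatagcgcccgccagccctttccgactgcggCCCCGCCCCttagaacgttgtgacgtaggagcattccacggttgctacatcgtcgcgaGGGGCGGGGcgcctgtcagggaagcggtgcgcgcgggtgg
CDKN2C, chr4:109666707-109667006: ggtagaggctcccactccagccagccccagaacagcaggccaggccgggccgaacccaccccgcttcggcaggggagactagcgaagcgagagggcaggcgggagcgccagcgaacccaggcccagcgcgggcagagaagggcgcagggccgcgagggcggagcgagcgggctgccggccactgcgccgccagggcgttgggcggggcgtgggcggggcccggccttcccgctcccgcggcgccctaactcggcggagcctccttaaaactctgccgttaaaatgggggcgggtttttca
CDKN2C, chr4:109665323-109665622: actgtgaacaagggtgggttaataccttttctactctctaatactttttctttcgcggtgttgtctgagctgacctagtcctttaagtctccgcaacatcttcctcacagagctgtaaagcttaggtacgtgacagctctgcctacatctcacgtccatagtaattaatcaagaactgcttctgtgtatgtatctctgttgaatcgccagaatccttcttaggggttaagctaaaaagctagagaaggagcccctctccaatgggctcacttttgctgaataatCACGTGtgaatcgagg
The first CCND3 promoter held a FOXO match on the minus strand at -243 from the start site and an SP1 match on the minus strand at -154. The second CCND3 promoter held SP1 matches at -48 on the minus strand and at 11 on the plus strand. Neither promoter of CCND3 held the AP-1, CRE, EGR or E2F letters. The upstream promoter of CDKN2C held none of the 7 motifs, and the downstream one held an E-box at 35. Of 32851 promoters of this length, 3.65% held the FOXO letters, 11.4% the SP1 letters and 7.15% the E-box letters. The same count gave 5.20% for AP-1, 1.79% for CRE, 2.91% for EGR and 1.07% for E2F. A match is a description of these letters and does not show a bound site.

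The cells were checked against markers. Of 12 bone marrow stromal and preadipocyte markers, 11 were detected on all 6 arrays (KITL on none), and their summed normalized intensity ranged from 150100 to 168400. NANOG and SOX2 (ES cells), PECAM1 and CDH5 (endothelium) and PTPRC (haematopoietic cells) were detected on no array, while POU5F1, TEK and LYZ2 were detected on all 6. Of 8 adipocyte markers on the array PPARG was detected on all 6 arrays and FABP4 and RETN on none. The 3 adipocyte markers that passed the filter summed to 2575-2880 in replicate 1 and to 3629-4699 in replicate 2. Per array, 15509-16459 probes were detected at a detection p under 0.05, and the median intensity before normalization was 153.4-168.1. These are bulk RNA samples, in which fewer cells expressing a gene and less RNA per cell cannot be told apart.

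D-type cyclins stood higher after FGF2 than in -GFs medium on every retained probe. After BMP4 every one of these probes overlapped with -GFs, though the representative CCND2 probe was higher in both well pairs (0.28 and 0.19). CDKN2C stood lower after FGF2, CDKN1C lay slightly lower, and CCNE1, CDKN1A and CDKN2B lay close to their -GFs levels. With limma and no term for the replicate number, CCND1 rose 1.64-fold and CDKN2C fell to 0.514-fold of its -GFs level, both with an adjusted p under 0.1. When limma took the replicate number as a block, since wells were paired by replicate, CCND2 and CCND3 rose and CDKN1C fell as well. No member passed the study's rule for a modulated gene in any comparison, an absolute log2 fold change over 1 with an adjusted p under 0.1. Values are given below as log2 normalized intensity in the order replicate 1, replicate 2. Levels of different probes are not comparable on this scale.

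**Figure D1:**
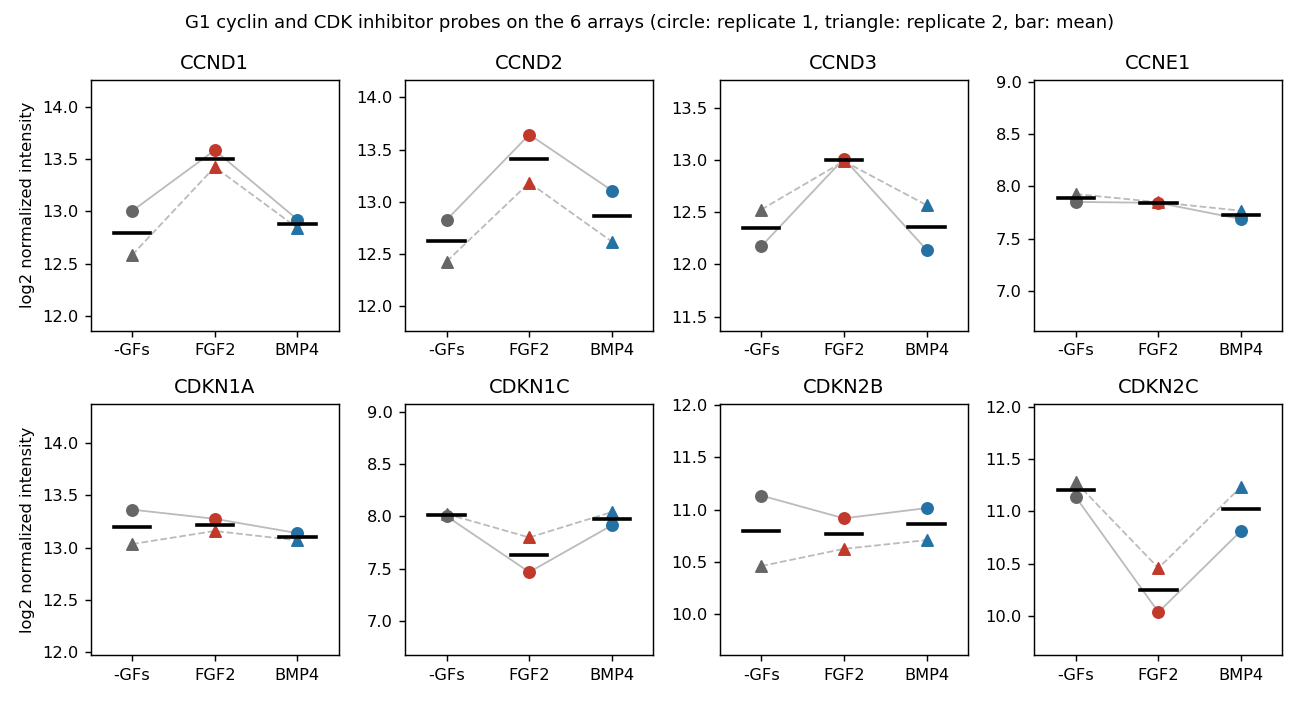
Log2 normalized intensity (vertical axis) of the probe that represents each of the 8 retained members, on the 6 arrays by group. Circles are replicate 1, triangles replicate 2, grey lines join wells of one replicate, and black bars are means of 2; all panels span the same range. Both FGF2 arrays lie above both -GFs arrays for CCND1, CCND2 and CCND3 and below them for CDKN2C, while BMP4 arrays overlap with -GFs for these 4 genes.

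CCND1, the D-type cyclin best known as a growth factor target, was measured by 3 probes, all detected on 6 arrays. The representative probe read 13.00 and 12.58 in -GFs, 13.58 and 13.42 with FGF2, and 12.92 and 12.84 with BMP4. Both FGF2 arrays lay above both -GFs arrays, and the BMP4 arrays lay between the 2 -GFs arrays. The group means were 12.79 ± 0.30 in -GFs, 13.50 ± 0.11 with FGF2 and 12.88 ± 0.06 with BMP4 (SD, n = 2). CCND1 rose with FGF2 by 0.71 on the log2 scale (SE 0.18, 95% interval 0.27 to 1.15, adjusted p = 0.0737), which was 0.58 in replicate 1 and 0.84 in replicate 2. With the replicate block the adjusted p was 0.00107. Without the block the call rested on single arrays: it was kept without -GFs replicate 1 and lost without any one of the other 5, with adjusted p between 0.104 and 0.313.

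The other 2 probes of CCND1 showed differences of the same sign. The probe ILMN_2601471 read 12.57 and 12.18 in -GFs, 13.00 and 13.04 with FGF2, and 12.36 and 12.10 with BMP4. The dimmer probe ILMN_2669793 read 9.50 and 9.42 in -GFs, 10.32 and 10.36 with FGF2, and 9.60 and 9.24 with BMP4. On both, the FGF2 arrays were the highest of the 6. When each probe was tested on its own, the log2 fold changes were 0.65 (adjusted p = 0.1004) and 0.88 (adjusted p = 0.0352), with adjusted p of 0.00283 and 0.000175 under the block.

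CCND2, like CCND1 and CCND3, activates CDK4 and CDK6. Its representative probe read 12.83 and 12.43 in -GFs, 13.64 and 13.18 with FGF2, and 13.11 and 12.62 with BMP4. Replicate 1 was the higher in every group, the FGF2 arrays did not overlap with -GFs, and the lower FGF2 array lay just above the higher BMP4 array. FGF2 gave a log2 fold change of 0.79 (SE 0.25, 95% interval 0.19 to 1.38, adjusted p = 0.122). The well pairs gave 0.82 and 0.75, and under the replicate block the adjusted p was 0.00032.

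A second CCND2 probe, ILMN_2700168, read 11.97 and 11.58 in -GFs, 12.67 and 12.01 with FGF2, and 11.96 and 11.43 with BMP4. The probe ILMN_1225932 read 8.52 and 8.30 in -GFs, 9.52 and 8.88 with FGF2, and 8.60 and 7.80 with BMP4. On both, FGF2 replicate 1 was the highest array and neither FGF2 array overlapped with -GFs. Tested on their own, they differed by 0.57 (adjusted p = 0.290) and 0.79 (adjusted p = 0.196), and under the block the adjusted p were 0.00527 and 0.000804. The probe ILMN_1235724, was detected only on -GFs replicate 2 and was not retained.

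CCND3, the remaining D-type cyclin, was read by its representative probe at 12.17 and 12.52 in -GFs, 13.01 and 12.99 with FGF2, and 12.14 and 12.57 with BMP4. The 2 FGF2 arrays were nearly equal and above all other arrays, and BMP4 and -GFs arrays paired up within each replicate. FGF2 gave a log2 fold change of 0.65 (SE 0.20, 95% interval 0.17 to 1.13, adjusted p = 0.114). The well pairs gave 0.84 and 0.46, and the adjusted p under the block was 0.00283. The probe ILMN_1246473 read 7.65 and 7.79 in -GFs, 7.89 and 8.39 with FGF2, and 7.62 and 7.99 with BMP4. Its FGF2 arrays lay above -GFs, the first of them below BMP4 replicate 2, and its log2 fold change was 0.42 (adjusted p = 0.311, under the block 0.0361). The probe ILMN_2661849 was detected only on FGF2 replicate 2 and was not retained.

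On the 8 retained probes of the D-type cyclins the log2 fold changes with FGF2 ran from 0.42 to 0.88, or 1.34- to 1.84-fold. On all 8 the FGF2 arrays lay above both -GFs arrays. These were the only retained member probes above -GFs without overlap, 8 of 16, while 24.7% of the 16111 retained probes did so. Probes of one gene share their RNA and are no replicates of the treatment.

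Of the E-type cyclins, which act with CDK2 at the end of G1, CCNE1 was the one retained. Its single probe, detected on all 6 arrays, read 7.85 and 7.93 in -GFs, 7.84 and 7.85 with FGF2, and 7.69 and 7.77 with BMP4. The 6 arrays lay within a narrow band near the detection limit, FGF2 just below -GFs and BMP4 lowest. The log2 fold change with FGF2 was -0.04 (SE 0.14, 95% interval -0.38 to 0.29, adjusted p = 0.883). The measured changes of the D-type cyclins lay outside this interval. Near the detection limit a change of the mRNA can read smaller, so one of that size is not excluded. CCNE2 was not well above background on any array, with detection p between 0.261 and 0.928.

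Of the INK4 inhibitors, CDKN2C passed the test with FGF2 and CDKN2B did not. CDKN2C, known as p18, read 11.14 and 11.28 in -GFs, 10.04 and 10.46 with FGF2, and 10.82 and 11.24 with BMP4. Both FGF2 arrays were the lowest, and the BMP4 arrays overlapped with -GFs. The means were 11.21 ± 0.10 in -GFs, 10.25 ± 0.30 with FGF2 and 11.03 ± 0.30 with BMP4 (SD, n = 2). CDKN2C fell by 0.96 on the log2 scale (SE 0.22, 95% interval -1.47 to -0.45, adjusted p = 0.0509), by 1.10 in replicate 1 and by 0.82 in replicate 2. Under the replicate block the adjusted p was 0.000061. Without the block the call was lost when any one of the 4 arrays of -GFs and FGF2 was left out, with adjusted p between 0.117 and 0.254, and kept without either BMP4 array.

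The second CDKN2C probe, ILMN_1215651, read 9.44 and 9.78 in -GFs, 8.74 and 9.24 with FGF2, and 9.23 and 10.06 with BMP4. It was lower with FGF2 in both well pairs, but FGF2 replicate 2 reached the level of BMP4 replicate 1. Its log2 fold change was -0.62 (adjusted p = 0.283, under the block 0.00411). CDKN2B, known as p15 and as a target of TGFβ in other cells, read 11.14 and 10.46 in -GFs, 10.92 and 10.62 with FGF2, and 11.01 and 10.71 with BMP4. Its 2 -GFs arrays enclosed all others, so the groups overlapped throughout. The log2 fold change was -0.03 (95% interval -0.63 to 0.58, adjusted p = 0.964). The difference between the 2 INK4 genes was not tested.

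Among the CIP/KIP inhibitors, CDKN1A (p21, the p53 target that binds CDK2 complexes) read 13.36 and 13.03 in -GFs, 13.28 and 13.16 with FGF2, and 13.14 and 13.07 with BMP4. The arrays of both factors lay within the range of the -GFs arrays. The log2 fold change with FGF2 was 0.02 (SE 0.17, 95% interval -0.38 to 0.42, adjusted p = 0.962), and it was -0.10 with median scaling. Its probes ILMN_2846775 and ILMN_2846776 gave -0.09 (adjusted p = 0.824) and -0.16 (adjusted p = 0.623).

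CDKN1C (p57) read 8.0003 and 8.0222 in -GFs, 7.47 and 7.80 with FGF2, and 7.91 and 8.04 with BMP4. FGF2 arrays were the lowest, and of the 2 only replicate 2 was detected. The log2 fold change was -0.38 (SE 0.17, 95% interval -0.78 to 0.02, adjusted p = 0.231, under the block 0.0504), and it was -0.89 with neqc, a background correction that stretches low values. CDKN1B (p27, the inhibitor best known for holding quiescent cells) could not be followed. Of its 3 probes, ILMN_2638428 was detected on -GFs replicate 1 alone, and ILMN_2923960 and ILMN_1228598 were not well above background on any array. That its mRNA was low in PA6 cells cannot be told apart from probes that read it poorly.

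In counts, FGF2 against -GFs gave 0 of 8 members modulated, where 3.53% of all 11872 genes were. At an adjusted p under 0.1 whatever the fold, 1 member rose (CCND1; 6.03% of all genes rose) and 1 fell (CDKN2C; 5.78% of all genes fell). Under the replicate block 3 rose, the 3 D-type cyclins, against 18.1% of all genes, and 2 fell, CDKN1C and CDKN2C, against 19.6%. Of the 16 retained member probes, 5 lay below -GFs without overlap (both of CDKN2C, 1 of CDKN1A, and those of CCNE1 and CDKN1C), against 28.5% of all retained probes. The median absolute log2 fold change was 0.52 over the 8 members and 0.24 over all genes, and the signed medians were 0.00 and -0.02. With 8 genes, these shares are a description of the members and no test of the list.

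**Figure D2:**
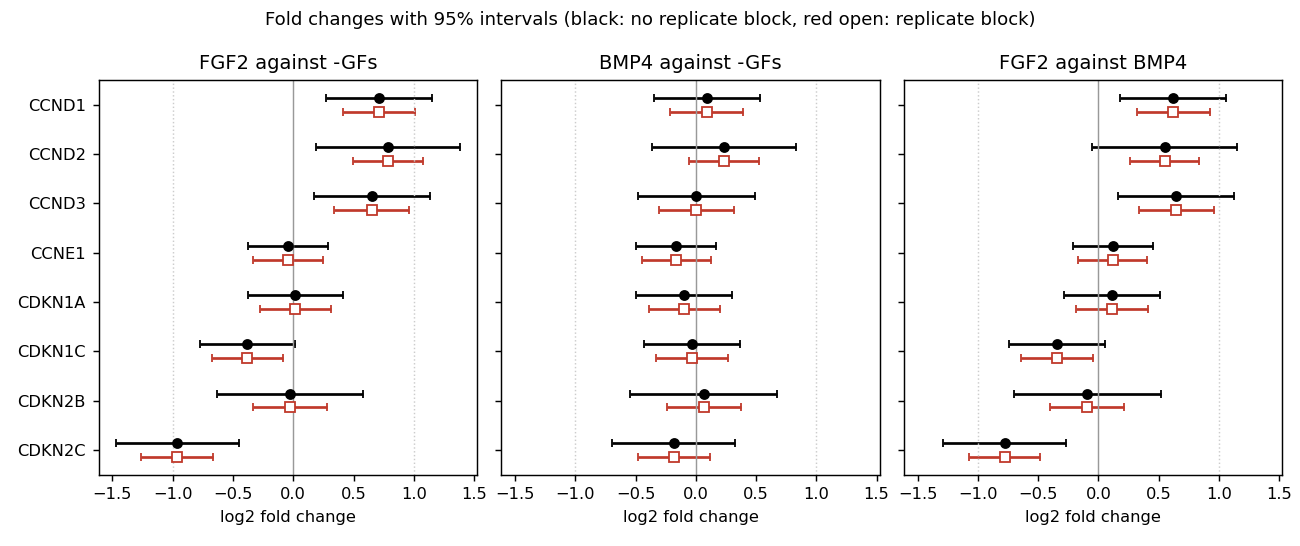
Log2 fold changes (horizontal axis) of the 8 retained members in the 3 comparisons, with 95% intervals from limma without the replicate block (black circles) and with it (red open squares). Grey dotted lines mark a log2 fold change of -1 and 1. With FGF2 against -GFs the intervals of CCND1, CCND2, CCND3 and CDKN2C exclude 0 in both fits, and with BMP4 against -GFs every interval holds 0.

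BMP4 for 3 h left no member past a threshold. The log2 fold changes ran from -0.18 (CDKN2C) to 0.24 (CCND2), and every member's adjusted p was 0.9995 in limma with Benjamini-Hochberg adjustment. None passed at an unadjusted p under 0.05, none with the block (lowest adjusted p = 0.790, CCND2), and none by the methods' t-test. Over all genes, 0.00842% passed the rule for modulated genes, 0.00842% passed an adjusted p under 0.1 and 0.219% passed it with the block. The 95% intervals were -0.35 to 0.53 for CCND1, -0.36 to 0.83 for CCND2, -0.48 to 0.49 for CCND3 and -0.69 to 0.33 for CDKN2C. A difference of CCND2 as large as that with FGF2 lay within the interval, and outside it under the block, at -0.05 to 0.52. For CDKN2B, a gene that TGFβ family signals can induce in other cells, the interval was -0.54 to 0.67.

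The largest BMP4 difference among retained member probes was that of the CDKN1A probe ILMN_2846775. It read 11.00 and 10.76 in -GFs, 10.86 and 10.72 with FGF2, and 10.74 and 10.34 with BMP4. Both BMP4 arrays lay below both -GFs arrays and overlapped with the FGF2 arrays, and the difference of -0.34 did not pass (adjusted p = 0.9997, under the block 0.640). The representative probe of CDKN1A differed by -0.09.

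**Figure D3:**
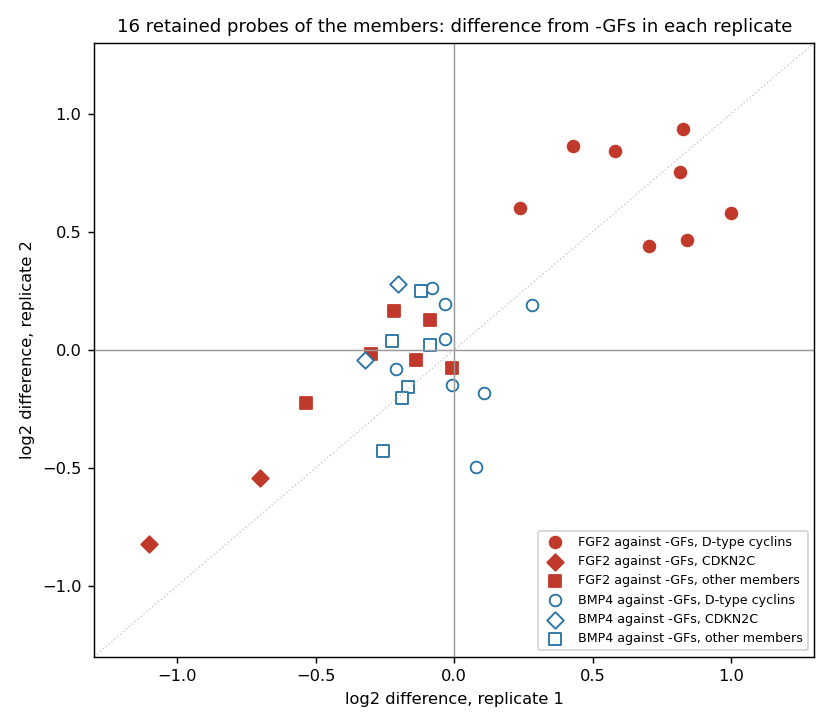
Difference from -GFs on the log2 scale in replicate 1 (horizontal axis) and replicate 2 (vertical axis) for each of the 16 retained member probes. Filled red symbols are FGF2 and open blue symbols BMP4; circles are D-type cyclins, diamonds CDKN2C and squares the other members. With FGF2 the D-type cyclin probes lie at the upper right and the CDKN2C probes at the lower left, while BMP4 points scatter around 0. How many of all retained probes lie there was not counted. Both comparisons use the same -GFs arrays.

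Both comparisons above use the same -GFs arrays, so the 2 factors were also compared with each other. FGF2 exceeded BMP4 by 0.62 for CCND1 (adjusted p = 0.116), 0.55 for CCND2 (adjusted p = 0.273) and 0.65 for CCND3 (adjusted p = 0.133). None of the 3 passed without the block, 2 of them at an unadjusted p under 0.05, and with the block the adjusted p were 0.00351, 0.00618 and 0.00348. CDKN2C was lower with FGF2 than with BMP4 by a log2 fold change of -0.78 (adjusted p = 0.0989, under the block 0.00053), a call that was lost whichever array was left out. CDKN1C differed by -0.35 (adjusted p = 0.296, under the block 0.0809). CCNE1, CDKN1A and CDKN2B differed by 0.12, 0.11 and -0.09, with adjusted p from 0.694 to 0.884.

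In this direct comparison 0 members were modulated, against 3.07% of all genes. No member was higher (4.84% of all genes) and 1 was lower (4.22%) at an adjusted p under 0.1. With the block 3 were higher (16.3%) and 2 lower (17.8%). On the retained D-type cyclin probes the difference of FGF2 from BMP4 ran from 0.34 to 0.998 on the log2 scale. The widest gap was that of the CCND2 probe ILMN_1225932.

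Replicate numbers carried differences of their own. In the model with group and replicate, CCND2 was lower in replicate 2 by a log2 fold change of -0.45 (SE 0.11, adjusted p = 0.00747), with -0.40 in -GFs, -0.46 with FGF2 and -0.49 with BMP4. CDKN2B was also lower, by -0.42 (SE 0.12, adjusted p = 0.0159), from -0.68 in -GFs to -0.29 with FGF2. CDKN2C was higher by 0.33 (SE 0.12, adjusted p = 0.0504), with 0.14 in -GFs and 0.42 with each factor. For CCND2 the difference between replicates was thus close in all groups, and for CDKN2B it was widest in -GFs.

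CCND3 differed by 0.25 (adjusted p = 0.150), with 0.35 in -GFs, 0.43 with BMP4 and -0.02 with FGF2. CCND1 differed by -0.22 (adjusted p = 0.191) and CDKN1A by -0.17 (adjusted p = 0.312). Thus 1 of 8 members was higher in replicate 2 (12.8% of all genes) and 2 were lower (16%). Without -GFs replicate 1 or 2, 1 member was lower, and without either BMP4 array none was higher. The adipocyte markers given above moved with the replicate number too, and their part in these differences was not tested.

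**Figure D4:**
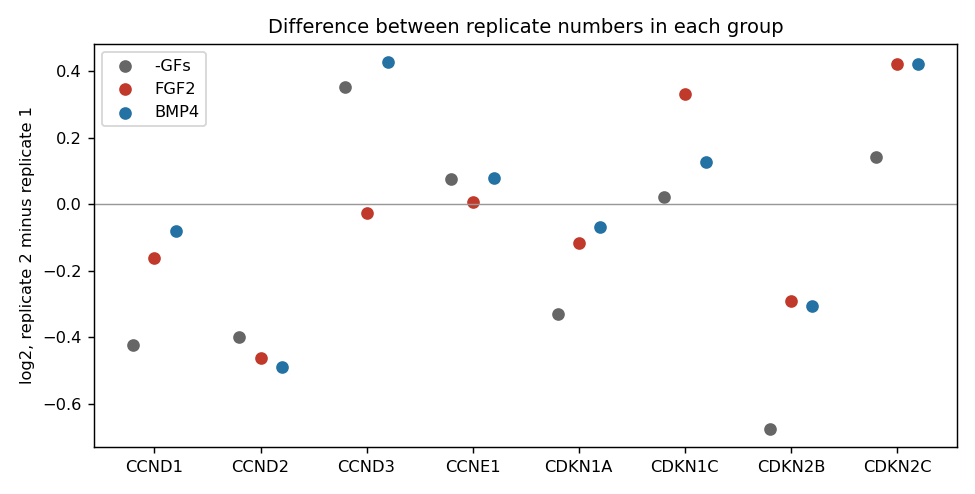
Replicate 2 minus replicate 1 on the log2 scale (vertical axis) for the representative probe of each retained member, in -GFs (grey), FGF2 (red) and BMP4 (blue). CCND1, CCND2, CDKN1A and CDKN2B are below 0 and CCNE1, CDKN1C and CDKN2C above 0 in all 3 groups. CCND3 is above 0 in -GFs and BMP4 only.

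The genes around the members were followed in 7 lists of the cell cycle, counted in the comparison of FGF2 with -GFs. In that comparison 6.03% of all genes rose and 5.78% fell at an adjusted p under 0.1, and 3.53% were modulated. With the block 18.1% rose and 19.6% fell. The counts below are descriptions to be read beside these shares, and no tests of the lists. Genes named from the lists are those modulated and a fixed set (CDK2, CDK4, CDK6, RB1, MYC, SKP2, FBXW7, CDKN2A, CDKN2D and MDM2), and the others named below were chosen after their values were seen. Of 8 CDK partners and CDK-activating kinase genes, 7 were tested and 0 passed, 2 of them at an unadjusted p under 0.05. CCNH (0.58) and CDC37 (0.48) rose with the block alone. The list's median log2 fold change was 0.29, against -0.02 over all genes. CDK4, the partner of D-type cyclins, read 12.44 and 12.71 in -GFs and 12.28 and 12.28 with FGF2, a difference of -0.29 (adjusted p = 0.324). CDK2, the partner of E-type cyclins, differed by 0.04 (adjusted p = 0.918), and CDK6 did not pass the detection filter.

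Of 17 RB and E2F proteins 11 were tested. E2F4, a repressive E2F of resting cells, rose by 0.72 (adjusted p = 0.0540), and E2F1, an activating E2F, fell by 0.77 (adjusted p = 0.0582). With the block 3 rose and 2 fell, and the median was 0.03. RB1 differed by -0.14 with FGF2 (adjusted p = 0.869) and by -0.77 between replicates (adjusted p = 0.000144).

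Of 22 E2F target genes of S phase entry 18 were tested, 0 rose and 3 fell, with a median of -0.32. TK1, thymidine kinase, read 10.45 and 10.42 in -GFs and 9.64 and 9.81 with FGF2, and fell by 0.71 (adjusted p = 0.0452). CHAF1A, a chromatin assembly factor, fell by 0.59 (adjusted p = 0.0753). MCM3, a helicase subunit, passed too, with a log2 fold change of -0.59 (SE 0.16, adjusted p = 0.0767). It was not well above background on either FGF2 array, so the size of its fall is uncertain. With the block 9 fell and 1 rose.

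Of 20 other CDK inhibitors and cyclins 13 were tested, and 1 fell, CCNG2, an atypical cyclin known as a FOXO target. It read 10.36 and 9.66 in -GFs and 8.95 and 8.57 with FGF2, a log2 fold change of -1.25 (SE 0.26, adjusted p = 0.0415), larger than that of any member. The list's median was -0.29, and with the block 5 fell and 2 rose. CDKN2A, the INK4 neighbour of CDKN2B, differed by -0.46 (adjusted p = 0.250, under the block 0.0336). CDKN2D, the fourth INK4 gene, differed by -0.29 (adjusted p = 0.308). Between replicates 8 of the 13 were lower in replicate 2 (16% of all genes) and 1 was higher (12.8%).

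Of 17 ubiquitin ligase and turnover factors of G1 cyclins and p27, 16 were tested, 1 rose and 1 fell, with a median of -0.04. SKP2, the F-box protein that marks p27 for degradation, read 9.56 and 9.67 in -GFs and 10.25 and 10.27 with FGF2, and rose by 0.64 (SE 0.14, adjusted p = 0.0497). FBXL12, another F-box protein, fell by 0.55 (adjusted p = 0.0935). FBXW7, the F-box protein for cyclin E, differed by 0.43 (adjusted p = 0.434, under the block 0.0616). With the block 4 rose and 2 fell.

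Of 19 p53 target genes 16 were tested, 2 rose and 2 fell, with a median of -0.06. PLK3, a stress kinase, rose by 1.32 (adjusted p = 0.0101) and GADD45A, a growth arrest gene, by 0.82 (adjusted p = 0.0410). SESN1, a sestrin, fell by 1.499 (adjusted p = 0.0261) and FAS, a death receptor, fell by 0.997 (adjusted p = 0.0332). MDM2, the p53 ligase, differed by 0.00 (adjusted p = 0.992). With the block 2 rose and 5 fell, among them TRP53INP1, a p53-induced nuclear protein, at -1.43 (adjusted p = 0.161, under the block 1.09e-06). CDKN1A, the p53 target among the members, is described above, with a difference of 0.02.

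Of 21 upstream transcription factors of G1 genes 16 were tested, with a median of 0.31, and 4 rose and 1 fell, all 5 modulated. EGR1 read 10.02 and 10.34 in -GFs and 14.37 and 14.37 with FGF2, and rose by 4.19 (adjusted p = 0.00459). FOS rose by 1.61 (adjusted p = 0.0920) and JUN by 1.24 (adjusted p = 0.0383), the subunits of AP-1. SMAD3, a TGFβ signal transducer, rose by 1.49 (adjusted p = 0.0103). MXD4, a MYC antagonist listed on the array as 2810410A03RIK, fell by 1.25 (adjusted p = 0.00941). MYC, detected on 1 of 2 -GFs arrays, differed by 0.40 (adjusted p = 0.408, under the block 0.0481) and by 0.43 between replicates (adjusted p = 0.0164). With the block 8 rose and 1 fell.

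With BMP4, limma called 0 genes in each of these 7 lists with or without the block. At an unadjusted p under 0.05, 1 upstream factor passed, SMAD3 (-0.53), and none of the other lists did.

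**Figure D5:**
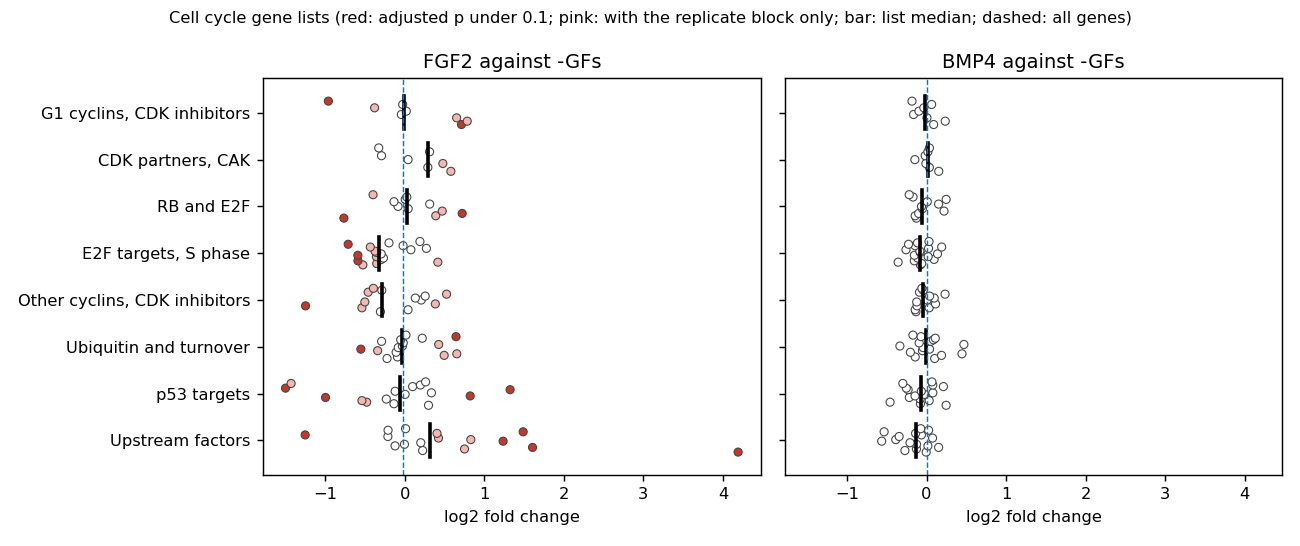
Log2 fold change (horizontal axis) of every tested gene in the members' list and the 7 other lists, FGF2 against -GFs (left) and BMP4 against -GFs (right). Red points have an adjusted p under 0.1, pink points only with the replicate block, black bars are list medians and the dashed line is the median of all genes. Calls appear with FGF2 only, and EGR1 at 4.19 is the point furthest to the right.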

How the data were processed

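Total RNA of the 6 wells was amplified, biotinylated and hybridized by the authors to Illumina MouseWG-6 v2.0 BeadChips. The deposited values are intensities, the mean bead brightness per probe on a linear scale and not normalized between arrays, each with a detection p-value. The methods name cubic spline normalization and the submitters' processing notes name GenomeStudio 2011.01. Samples were grouped by the labels, columns being matched by their letters and replicate number, and 9 columns without a heading and 6 leftover lines were not used.

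The spline was re-implemented in R 4.3.3 (452 quantiles per array mapped onto the mean quantiles of the 6 arrays) and values were converted to log2. Such scaling removes differences shared by all probes of an array. A probe was kept if both arrays of some group detected it (detection p under 0.05). For genes with several such probes, the one of largest mean stood for the gene. limma 3.58.1 (lmFit, eBayes) was fitted to all 6 arrays without a block (3 residual degrees of freedom), since the methods name limma but no block, and with a block for the replicate (2). Adjusted p-values come from limma and were corrected by Benjamini-Hochberg over the 11872 genes tested, or over all 16111 probes where probes were tested singly, and tests are two-sided. Deviations of same-numbered arrays correlated at 0.602 (-GFs and FGF2), 0.741 (-GFs and BMP4) and 0.579 (FGF2 and BMP4), and the labels describe a replicate as 1 set of wells, so the numbers were taken as pairs. Whether the 2 sets came from separate cultures beyond that is not given in the sources used here, and the p-values measure the spread between these wells. The number of arrays limits the precision.

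The rule for named genes was all probes of the members, the modulated genes of each list up to 6 per list, and 10 genes given whatever their change. Genes with a profile like that of a modulated member were to be named, but no member was modulated. The members and lists were chosen with earlier results of these data known. The fits were tested on simulated data. The alternatives were other normalizations, detection filters, probe choices, eBayes options, an unpaired t-test, a stricter threshold and leaving out each array. The methods name that t-test in their general statistics section and limma for the arrays. Normalizations combined with the block were added after the data were seen.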

Additional observations from a re-analysis of the deposited data

How the results depend on the processing

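The replicate block changed most: for FGF2 against -GFs it moved the members that rose from 1 to 3 and those that fell from 1 to 2, and for FGF2 against BMP4 from 0 to 3 and from 1 to 2. Each of the 3 other normalizations combined with the block gave the same 3 higher members, and for FGF2 against -GFs the same count of 2 lower. For FGF2 against BMP4, neqc and quantile normalization with the block gave 2 lower. For FGF2 against -GFs without the block, 0 members rose with neqc, median scaling, either form of the unpaired t-test or an adjusted p under 0.05. With the trend and robust options 2 rose. There 0 fell with the mean of probes, the adjusted t-test or an adjusted p under 0.05. With neqc or median scaling, alone or with the block, 1 member, CDKN2C, was modulated. For FGF2 against BMP4, 1 was higher with the mean of probes, the trend and robust options or the unadjusted t-test. There 0 were lower with neqc, median scaling, no filter, every probe, the mean of probes, the trend and robust options, both t-tests or an adjusted p under 0.05. For the replicate numbers, 0 were higher with neqc, median scaling or an adjusted p under 0.05, and 2 with the mean of probes or the trend and robust options. No alternative gave a BMP4 call. The cause was not tested.

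Leaving out 1 array gave 0 to 1 higher and 0 to 1 lower for FGF2 against -GFs, 0 to 1 higher and 0 to 0 lower for FGF2 against BMP4, and 0 to 1 higher and 1 to 2 lower for the replicate numbers. It left the FGF2 changes between 0.50 and 0.92 (CCND1), 0.55 and 1.02 (CCND2), 0.47 and 0.83 (CCND3) and -1.17 and -0.75 (CDKN2C).

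Signs turned for small changes only. CDKN1A under FGF2 was -0.10 with median scaling, alone or with the block, and -0.0762 with the mean of probes. Under BMP4, CCND1 was -0.0087 with median scaling, alone or with the block, and -0.0313 with the mean of probes, and CCND2 was -0.0174 with the mean of probes. With median scaling, alone or with the block, CCND3 was -0.0848 and CDKN2B -0.0152 under BMP4. Leaving out 1 array put CDKN1A between -0.15 and 0.18 and CDKN2B between -0.37 and 0.31 under FGF2. Under BMP4 it put CCND1 between -0.12 and 0.30, CCND2 between -0.0078 and 0.48, CCND3 between -0.21 and 0.22, CDKN1A between -0.26 and 0.0704, CDKN1C between -0.0997 and 0.0298, CDKN2B between -0.27 and 0.40 and CDKN2C between -0.39 and 0.0289. For FGF2 against BMP4 it put CDKN2B between -0.24 and 0.0638. CCNE1 and CDKN1C lay near the detection limit, and the 2 arrays per group limit what could be called.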
